A study of Mus musculus with 19 samples.

Results

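Wnt ligands, R-spondins and Lmx1a were followed in RNA-seq libraries of embryonic mouse cerebral cortex, as a set of 10 genes chosen by name (Wnt3a, Wnt2b, Wnt5a, Wnt7a, Wnt7b, Wnt8b, Rspo1, Rspo2, Rspo3 and Lmx1a) out of 51912 genes in each count table. All 10 were found by Ensembl identifier in the GENCODE annotation and have a value in all 19 libraries. Each library was made from the cortex of 1 embryo at E13.5, on a mixed C57BL/6 and 129 background. The groups were 7 control embryos (ctrl), 5 embryos in which Emx1-Cre deleted a conditional Ino80 allele (cKO-E, Emx1Cre/+;Ino80fl/fl), and 7 embryos in which Emx1-Cre deleted conditional alleles of both Ino80 and Trp53 (dKO-E). The labels do not state which alleles the control embryos carry. Emx1-Cre recombines in progenitors of the dorsal telencephalon and their progeny, so cells of other origin in the dissected tissue keep an intact Ino80 gene. Ino80 encodes the core ATPase of a chromatin remodelling complex, and Trp53 encodes p53, which triggers cell cycle arrest and apoptosis after DNA damage.

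Wnt proteins are secreted lipid-modified ligands that bind Frizzled receptors and the co-receptors Lrp5 and Lrp6. In the canonical branch this stabilizes β-catenin, which acts with the transcription factors Tcf7l1, Tcf7l2, Lef1 and Tcf7. R-spondins are secreted proteins that bind Lgr receptors and protect Frizzled receptors from the ubiquitin ligases Rnf43 and Znrf3, and thereby raise the response to Wnt. The cortical hem lies at the medial margin of the cortex, next to the choroid plexus, secretes Wnt and Bmp proteins that pattern the hippocampal field, and gives rise to Cajal-Retzius neurons. Wnt3a, Wnt2b, Wnt5a and Wnt8b are known from the hem or the medial wall around it, Lmx1a is a LIM-homeodomain transcription factor of the hem and roof plate, and Wnt7a and Wnt7b are widely expressed in the cortical wall.

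RefSeq held a promoter window, from 250 bases before to 50 bases after the start of the gene as RefSeq places it on GRCm38.p6, for 6 of the 10 genes (Wnt3a, Wnt2b, Wnt7a, Wnt8b, Rspo1 and Lmx1a). The windows of 3 hem genes are printed 5′ to 3′ on the strand of the gene, because these genes had the embryo-to-embryo differences described below and their windows differed widely in composition. Wnt3a is on the minus strand at chr11:59290702-59291001, Lmx1a on the plus strand at chr1:167689308-167689607 and Wnt8b on the plus strand at chr19:44493222-44493521. Capitals mark a GC box (GGGCGG) in Wnt3a and Lmx1a and a TCF/LEF core (CTTTGA or CTTTGT) in Wnt8b, searched on both strands; overlapping matches run together. The RefSeq start lies 321 bases downstream of the gene start in the GENCODE annotation for Lmx1a, whose window is therefore wholly downstream of that start, 212 bases downstream for Wnt2b, and within 10 bases for the other 4 genes.
Wnt3a: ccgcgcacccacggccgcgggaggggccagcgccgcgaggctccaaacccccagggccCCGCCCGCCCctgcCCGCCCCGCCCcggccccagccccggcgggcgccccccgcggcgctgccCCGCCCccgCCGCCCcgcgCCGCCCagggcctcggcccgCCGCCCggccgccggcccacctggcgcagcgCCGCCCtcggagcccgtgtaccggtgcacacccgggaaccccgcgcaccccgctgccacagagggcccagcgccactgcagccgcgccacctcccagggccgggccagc
Lmx1a: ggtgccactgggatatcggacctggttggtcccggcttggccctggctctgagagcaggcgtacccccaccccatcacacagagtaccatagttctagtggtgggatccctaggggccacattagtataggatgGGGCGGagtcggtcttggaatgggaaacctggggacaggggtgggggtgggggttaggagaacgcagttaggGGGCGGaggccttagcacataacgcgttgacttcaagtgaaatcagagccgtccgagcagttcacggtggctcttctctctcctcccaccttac
Wnt8b: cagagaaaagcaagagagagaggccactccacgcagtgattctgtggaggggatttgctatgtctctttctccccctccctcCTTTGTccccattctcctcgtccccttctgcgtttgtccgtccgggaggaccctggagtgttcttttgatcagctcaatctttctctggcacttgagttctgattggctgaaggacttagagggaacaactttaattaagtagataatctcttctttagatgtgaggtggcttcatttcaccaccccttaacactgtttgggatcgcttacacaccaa

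The Wnt3a window was 86.3% G or C with 45 CpG dinucleotides and held 9 GC boxes, the Lmx1a window was 59.3% G or C with 12 CpG and 2 GC boxes, and the Wnt8b window was 48.3% G or C with 6 CpG and no GC box. Over all 32851 windows of the table the median was 52.7% G or C and 7 CpG, and 35.7% held a GC box. The TCF/LEF core was found in 1 of the 6 windows, that of Wnt8b (bases -168 to -163), against 31.2% of all windows. The letters ATGGCG, the core of the motif of YY1, a factor that associates with the INO80 complex, were found in the Rspo1 window alone (bases -128 to -123), against 8.93% of all windows. A TATA box (TATAAA) was in none of the 6 and in 13.6% of all windows. These matches describe letters in the windows and say nothing of binding.

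Depth was 820915 to 8095810 deduplicated counts on genes per library, with a median of 2952788, so that 3 counts corresponded to 0.379 to 3.54 CPM (counts scaled to a common library size). CPM here are relative to library sizes corrected by the trimmed mean of M-values (TMM), and limits set from 3 counts cover counting error only. The markers of the labelled tissue were abundant: 7 of 9 neocortical genes, among them Emx1, Pax6 and Neurod6, had counts in every library. Sox2 and Tubb3 were listed at 0 in all 19 libraries. The study stained SOX2 protein in progenitors of this cortex, so these zeros cannot be read as absence of the transcript. The reason for them was not found. Ino80 counts were higher in cKO-E (mean 166 CPM) and dKO-E (186 CPM) than in ctrl (121 CPM), and since Cre removes only part of the gene, whole-gene counts do not check the deletion. Trp53 was 43.8 CPM in ctrl, 39.2 CPM in cKO-E and 34.5 CPM in dKO-E. The libraries were sequenced in 3 batches. Batch 1 held 4 ctrl, 3 cKO-E and 4 dKO-E libraries, batch 2 held 3 ctrl, 2 cKO-E and 2 dKO-E libraries, and the third batch held 1 dKO-E library. No litter gave both cKO-E and dKO-E embryos, so litter and genotype cannot be told apart in that comparison. The dKO-E embryos all came from litters 1 and 2, and litter 2 held only dKO-E embryos. Sex was unbalanced between the mutants: among cKO-E only embryo C was male, and among dKO-E only embryos A and B were female.

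The 10 genes spanned a wide range of levels in control cortex. Per kilobase of exon, Wnt7a came first at 25.7 ± 2.42 CPM per kb (SD, n = 7), followed by Wnt7b at 19.2 ± 3.70 and Rspo3 at 12.7 ± 3.02. Each of these neighbours differed by more than either SD. The other genes were far lower, from Wnt5a at 0.687 ± 0.228 and Lmx1a at 0.593 ± 0.477 CPM per kb through Rspo1 (0.394 ± 0.985), Wnt8b (0.361 ± 0.71) and Rspo2 (0.275 ± 0.136) to Wnt2b (0.0974 ± 0.0881) and Wnt3a, which had no count. From Wnt5a down to Rspo2, neighbours in this order differed by less than the larger of their SDs. In dKO-E the order of the first 4 genes was as in ctrl, with Wnt7a at 22.6 ± 5.65, Wnt7b at 15.7 ± 2.78, Rspo3 at 10.3 ± 2.48 and Wnt5a at 0.935 ± 0.358 CPM per kb (n = 7). In cKO-E Rspo3 (21.9 ± 5.83), Wnt7b (21.3 ± 4.90) and Wnt7a (19.8 ± 3.89) were level within their SDs (n = 5), and Rspo2 followed at 3.31 ± 5.86 CPM per kb, a mean that 1 embryo set.

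**Figure D1:**
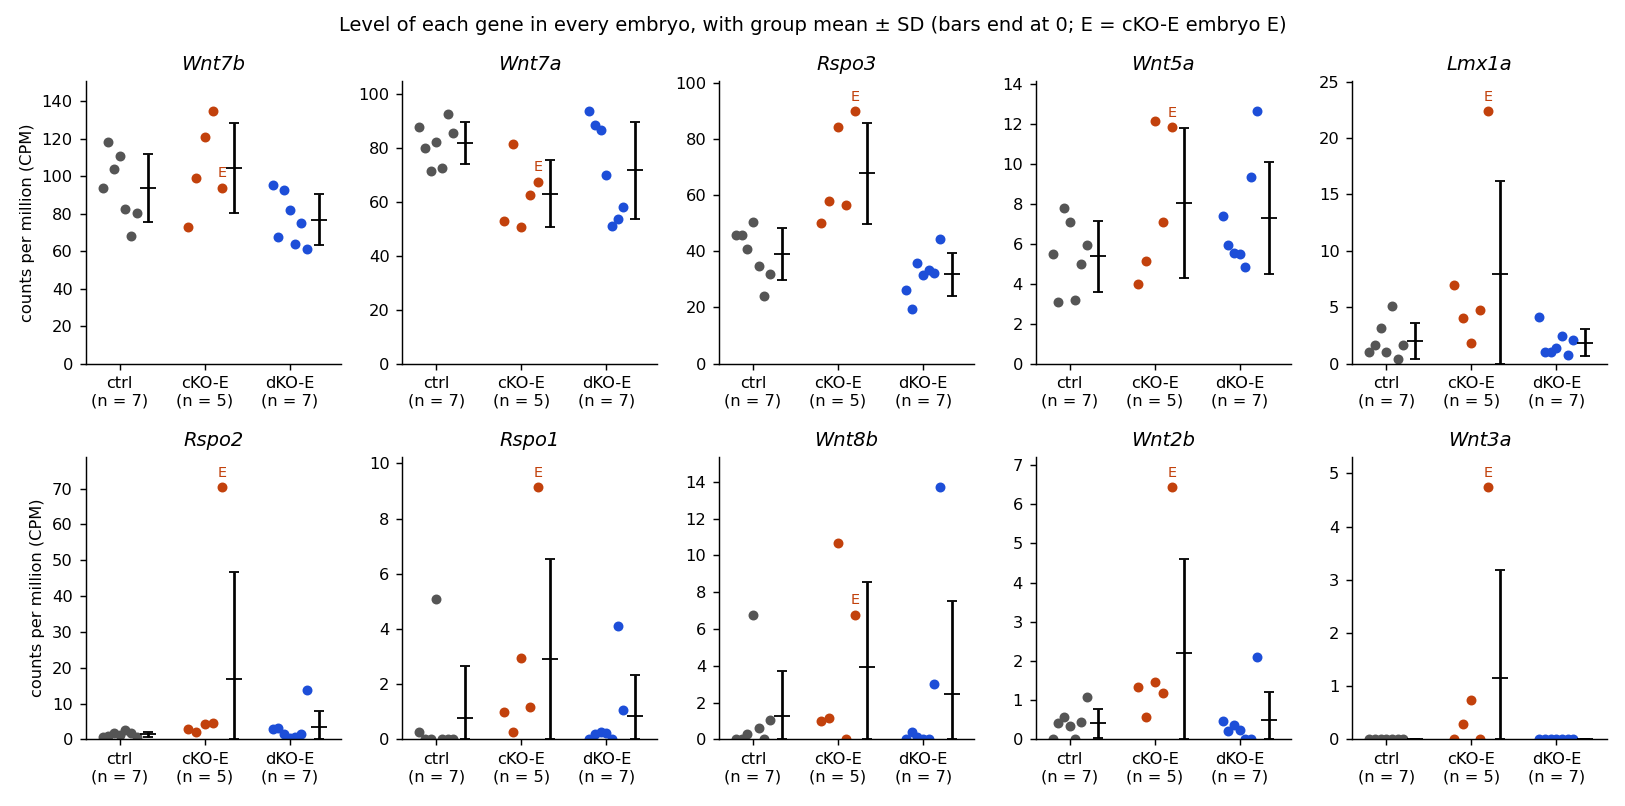
Level of each of the 10 genes in CPM (y axes, linear from 0) in each embryo of ctrl, cKO-E and dKO-E; each point is 1 embryo, the horizontal tick and bar beside it are the group mean ± SD, and bars end at 0. The letter E marks cKO-E embryo E, which was the highest of its group for Rspo1, Rspo2, Rspo3, Wnt2b, Wnt3a and Lmx1a.

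The first comparison asked which of these genes differed after loss of Ino80 alone. In cKO-E, Rspo3 and Lmx1a were higher and Wnt7a was lower than in ctrl, and the abundant ligand Wnt7b did not pass the test. Of the 10 genes, 5 had enough counts for the fit across all genes (edgeR quasi-likelihood F test, Benjamini-Hochberg adjustment over 11660 genes), and of these 2 rose and 1 fell at a false discovery rate of 0.05. Over all genes tested 7.31% were higher and 9.88% were lower. The same 3 genes had an unadjusted p under 0.05 in edgeR. For counts at that threshold, here and below, the share of all genes was not measured. At a stricter rate of 0.001 the quasi-likelihood test called none of the 5, against 3.38% of all genes. The study used that rate with the likelihood-ratio test of edgeR, which here called 1 of the 5, Rspo3 (adjusted p = 8.55e-05), against 7.17% of all genes, and DESeq2 gave Rspo3 an adjusted p of 0.000256. Values of ctrl and cKO-E overlapped for all 5, whereas 8.17% of all genes tested had groups that did not overlap. Lmx1a entered the fit mainly through cKO-E, where it was high: 4 of its 5 libraries over the 3.38 CPM of the filter were cKO-E and 1 was ctrl, so its call is no support for a rise of the set. Of the other 4 genes 1 rose and 1 fell, and their median log2 fold change of 0.33 stood beside 0.02 over all genes tested.

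Rspo3, an R-spondin, ranged in ctrl from 24.0 CPM through a median of 40.9 CPM to 50.5 CPM. In cKO-E it was 49.9 CPM in embryo A, 57.9 CPM in B, 84.3 CPM in C, 56.6 CPM in D and 89.8 CPM in E. Thus 4 of the 5 cKO-E embryos were above every ctrl embryo, and embryo A lay just under the highest ctrl value. The log2 fold change was 0.78 ± 0.16 (SE; edgeR quasi-likelihood test, adjusted p = 0.00337), and it stayed between 0.65 and 0.88 when each embryo was left out in turn. Within each sequencing batch the cKO-E embryos lay above the ctrl embryos, apart from embryo A in batch 1: there ctrl spanned 40.9 to 50.5 CPM and cKO-E 49.9 to 84.3 CPM, and in batch 2 ctrl spanned 24.0 to 34.7 CPM and cKO-E 56.6 to 89.8 CPM. Fitted alone, batch 1 gave 0.48 ± 0.14 (adjusted p = 0.0393) and batch 2 gave 1.39 ± 0.20 (adjusted p = 0.00193, edgeR).

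Lmx1a is the only transcription factor among the 10 genes. In ctrl it ranged from 0.452 CPM through 1.62 CPM to 5.14 CPM, which is 1 to 11 counts a library. In cKO-E it was 6.99 CPM in embryo A, 4.01 CPM in B, 1.84 CPM in C, 4.72 CPM in D and 22.4 CPM in E, from 4 to 66 counts. Only A and E were above every ctrl embryo, and C was close to the ctrl median. The log2 fold change was 2.15 ± 0.56 (adjusted p = 0.0135, edgeR). Without embryo E it was 1.22 ± 0.47 with an adjusted p of 0.0885, and in batch 1 alone 1.31 ± 0.48 with an adjusted p of 0.0851 (edgeR), so the call rested on embryo E. With embryo E kept, litter as a block also ended the call (1.9, adjusted p = 0.0614, edgeR).

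Wnt7a, a ligand of the cortical ventricular zone, ranged in ctrl from 71.5 CPM through 82.1 CPM to 92.3 CPM. In cKO-E it was 52.9 CPM in embryo A, 81.1 CPM in B, 50.5 CPM in C, 62.5 CPM in D and 67.4 CPM in E. All but embryo B were below every ctrl embryo. The log2 fold change was -0.37 ± 0.11 (adjusted p = 0.0279, edgeR). The call was lost without ctrl embryo A (adjusted p = 0.056), cKO-E embryo A (0.0887) or cKO-E embryo C (0.093), and in each batch fitted alone (-0.37 and -0.36, adjusted p = 0.0853 and 0.163, edgeR). It was also lost with litter as a block (-0.31, adjusted p = 0.125) and in 1 fit over all libraries (-0.37, adjusted p = 0.0694, edgeR).

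Wnt7b, its close paralog and a ligand also made by cortical neurons, ranged from 67.9 to 118 CPM in ctrl with a median of 93.4 CPM, and from 72.9 to 135 CPM in cKO-E. The groups overlapped widely, with a log2 fold change of 0.09 ± 0.14 (adjusted p = 0.72, edgeR), which was -0.13 in batch 1 and 0.50 in batch 2 fitted alone. Wnt5a, which acts largely through β-catenin-independent signalling, ranged from 3.12 to 7.78 CPM in ctrl. In cKO-E it was 4.00, 5.16, 12.2, 7.08 and 11.9 CPM in embryos A to E, and the difference of 0.58 ± 0.31 did not pass the test (adjusted p = 0.226, edgeR).

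**Figure D2:**
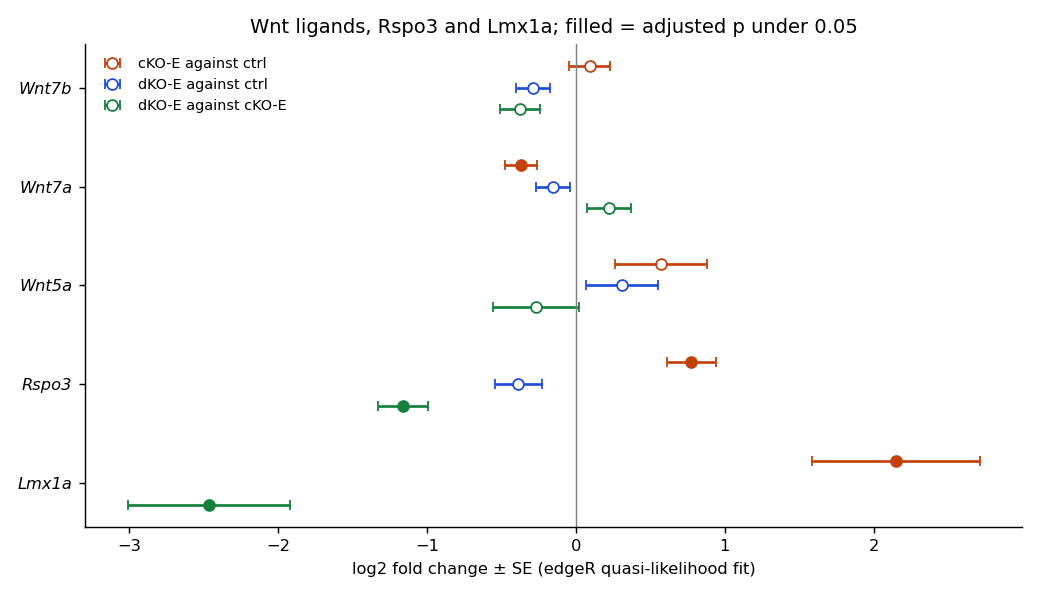
Log2 fold change ± SE (x axis) of the 5 genes with enough counts in the 3 comparisons, from edgeR quasi-likelihood fits; filled points passed an adjusted p of 0.05. Rspo3 was at 0.78 in cKO-E against ctrl and at -1.16 in dKO-E against cKO-E, whereas no point of dKO-E against ctrl is filled; Lmx1a has no point there because its counts were too low for that fit.

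The other 5 genes (Wnt3a, Wnt2b, Wnt8b, Rspo1 and Rspo2) were below the count filter in all 3 comparisons. Their mean CPM were compared by a two-sided exact permutation test without adjustment, in which the smallest possible p was 0.00126 for the comparisons with cKO-E and 0.000291 for dKO-E against ctrl.

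Wnt3a, the ligand that marks the cortical hem, had no count in any of the 7 ctrl libraries, which together allow up to 0.145 CPM at 3 counts over the group. In cKO-E it had 0 counts in embryo A, 1 in B, 2 in C, 0 in D and 14 in E. Nearly all of its counts thus came from embryo E, at 4.74 CPM. Pooled over the group, Wnt3a was 1.31 CPM in cKO-E, at least 9.01-fold higher than in ctrl against that limit (exact permutation p = 0.0455). Without embryo E the other 4 embryos held 3 counts, 0.298 CPM pooled, which is no more than their own limit, and the exact permutation p was 0.109. It was also 0.0606 to 0.109 without cKO-E embryo B or C or any 1 ctrl embryo.

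Wnt2b, another hem ligand, had 0 to 2 counts in each ctrl library and 4, 2, 4, 1 and 19 counts in cKO-E embryos A to E. Its level was at most 1.08 CPM in ctrl and was 1.33, 0.574, 1.47, 1.18 and 6.44 CPM in cKO-E. Only embryo E was also above the CPM that 3 counts make in ctrl I (1.62 CPM) and ctrl F (1.93 CPM), which had 2 and 0 counts. Embryos A and C, at 4 counts each, were above every ctrl value but cannot be ranked against those 2 libraries. Embryo A cannot be ranked against ctrl H either, which had 1 count and where 3 counts make 1.36 CPM. The value of D is 1 count in the smallest library and cannot be ranked against ctrl. The means were 0.409 ± 0.370 CPM (SD, n = 7) and 2.20 ± 2.39 CPM (n = 5), with an exact permutation p of 0.00379. Without embryo E the cKO-E mean was 1.14 ± 0.396 CPM and the exact permutation p was 0.0152.

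Rspo2 had 1 to 6 counts in each ctrl library (0.541 to 2.57 CPM). In cKO-E it had 9, 7, 12, 4 and 208 counts, or 3.00, 2.01, 4.42, 4.72 and 70.5 CPM. Here 4 of 5 cKO-E embryos were above every ctrl embryo, and embryo E stood far above the rest. The means were 1.40 ± 0.695 CPM in ctrl and 16.9 ± 30.0 CPM in cKO-E (exact permutation p = 0.00253). Without embryo E the cKO-E mean was 3.54 ± 1.27 CPM (exact permutation p = 0.00606).

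Wnt8b and Rspo1 did not pass the test. Wnt8b, a ligand of the dorsomedial cortex, had 20 counts in ctrl embryo D and 0 to 2 in the other ctrl libraries, and 3, 4, 29, 0 and 20 counts in cKO-E embryos A to E (exact permutation p = 0.241). Rspo1 had 15 counts in ctrl embryo D, 1 in A and 0 in the others, and 3, 1, 8, 1 and 27 counts in cKO-E embryos A to E (exact permutation p = 0.23). For Rspo1 the highest ctrl embryo was above 4 of the 5 cKO-E embryos in CPM, and for Wnt8b above 3, with embryo E level with it. Ctrl embryo D decided both tests: without it the exact permutation p was 0.0325 for Wnt8b and 0.00216 for Rspo1.

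Embryo E of cKO-E thus held the highest value of any library for Wnt3a, Wnt2b, Rspo1, Rspo2, Rspo3 and Lmx1a. The 8 other hem and roof plate genes (Bmp and Msx genes, Gdf7 and Lmx1b) summed to 19.7 CPM there, against 3.32 to 18.6 CPM over ctrl and 2.97 to 13.7 CPM over dKO-E. Of the 19.7 CPM, Bmp6, singled out after its values were seen, made up 8.47 CPM (at most 2.57 CPM in ctrl), and the other 7 genes 11.2 CPM, inside their ctrl range of 3.32 to 16.2 CPM. The median sum of the 8 was 10.6 CPM in cKO-E and 12.2 CPM in ctrl. The 9 choroid plexus markers summed to 2.03 CPM in embryo E, within their range over ctrl (0 to 3.39 CPM). Ttr, the most abundant transcript of that epithelium, had 0 counts in all 5 cKO-E libraries. It had 1 count in total over ctrl and 1 over dKO-E, so these zeros do not set cKO-E apart. Wnt8b and Rspo1 had their highest ctrl values in the same embryo, D (6.78 and 5.09 CPM), and their 2 highest cKO-E values in the same embryos, C (10.7 and 2.95 CPM) and E (6.78 and 9.15 CPM). In bulk tissue a difference in the share of hem cells in the dissected piece and a difference in RNA per cell cannot be told apart.

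**Figure D3:**
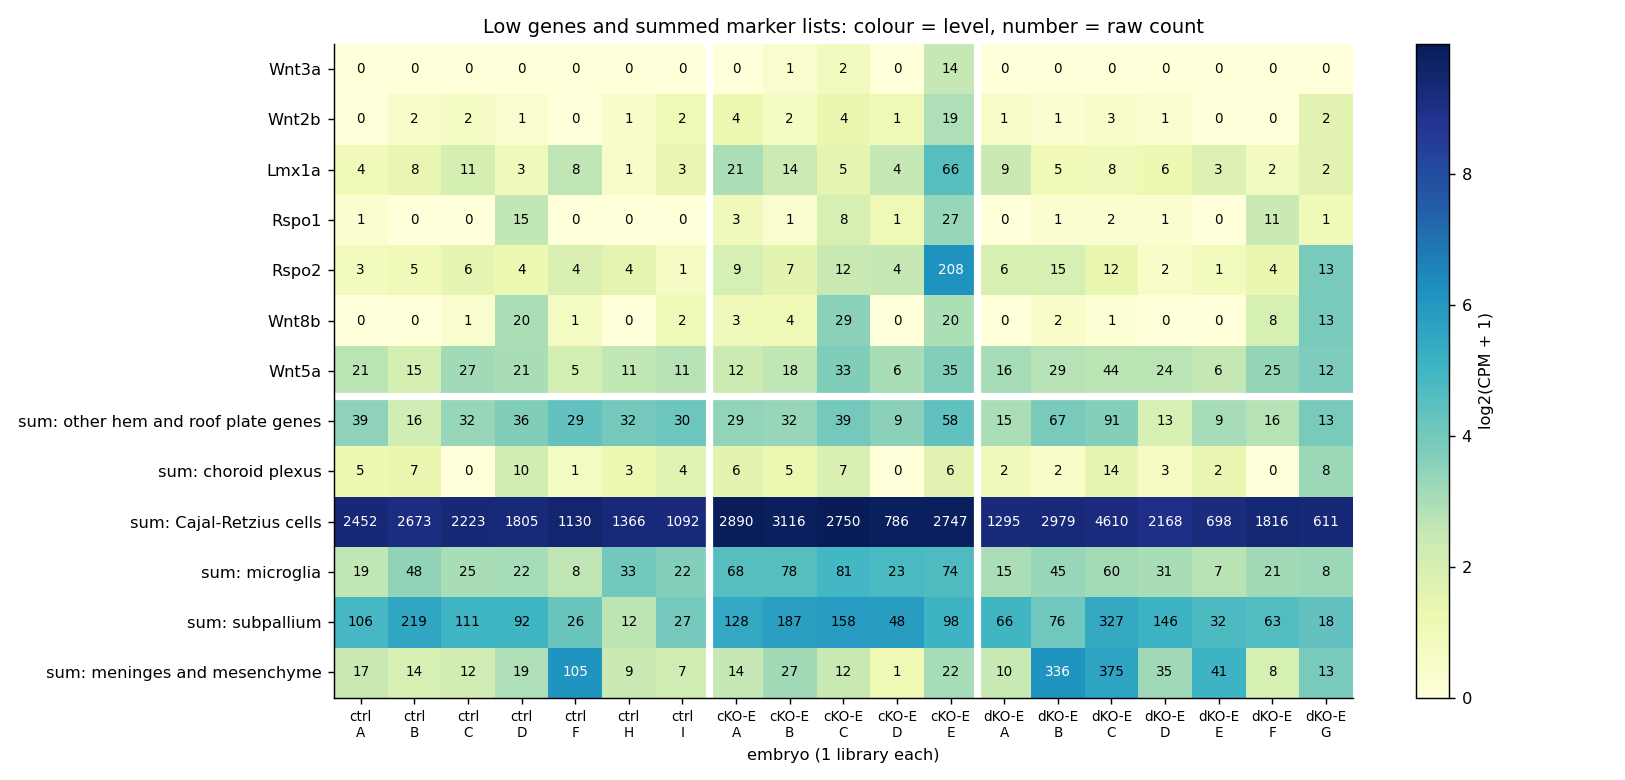
The 7 genes of lowest level (upper rows) and 6 summed marker lists (lower rows) in each of the 19 libraries (columns, by group and embryo letter); colour is log2(CPM + 1) and the number in each cell is the raw count. Wnt3a is 0 in every ctrl and dKO-E column and 14 in cKO-E embryo E, while the choroid plexus row is at 0 to 14 counts throughout and the Cajal-Retzius row is darker in cKO-E.

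Some marker lists of other cell types differed between cKO-E and ctrl. The 6 Cajal-Retzius genes summed to 893 to 1013 CPM in cKO-E, against 555 to 726 CPM in ctrl and 495 to 679 CPM in dKO-E, with no overlap between cKO-E and the others. Most of these sums was Reln alone, with means of 773 CPM in cKO-E, 505 CPM in ctrl and 478 CPM in dKO-E. Of the 6 genes, Reln, which encodes a secreted guidance protein (log2 fold change 0.62 ± 0.07, adjusted p = 1.13e-05), Trp73 (0.96 ± 0.17, adjusted p = 0.00083) and Ebf3 (0.91 ± 0.12, adjusted p = 5.26e-05) rose in cKO-E against ctrl, and Ebf2 did not pass (0.05, adjusted p = 0.901, edgeR). Lhx1 and Lhx5 were below the filter in that fit. The 7 microglia genes summed to 22.4 to 29.8 CPM in cKO-E and to 4.96 to 14.9 CPM in ctrl. The 2 with enough counts, Csf1r and Cx3cr1, were higher (2.14 and 1.17, edgeR). Csf1r entered the fit through cKO-E alone, since it was at most 1.66 CPM in ctrl, under the 3.38 CPM of the filter. Its call is thus no support for a rise of the list. Among the genes below the filter, P2ry12 had a lower mean in cKO-E (1.28 CPM) than in ctrl (1.84 CPM), and the others had higher means. The 6 subpallial genes summed to 33.2 to 58.2 CPM in cKO-E and 5.43 to 45.5 CPM in ctrl, with overlap, and 1 of 3 tested, Dlx1, rose. The median of Dlx1 was 3.24 CPM in ctrl, under the filter, and its lowest cKO-E value was 5.76 CPM, so its call is no support for a rise of that list. None of the 4 endothelial genes tested was called, the 7 meningeal genes were below the filter and summed to 1.18 to 7.74 CPM in cKO-E against 2.91 to 67.4 CPM in ctrl, and none of the 3 antihem genes tested was called. The part of these lists in the Rspo3 and Lmx1a differences was not tested.

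Genes of the medial pallium and of the neocortex were also measured. Of 6 medial pallial genes, Lhx2, a selector gene that restrains the hem (-0.66 ± 0.09, adjusted p = 7.51e-05), and Emx2, a transcription factor of the medial cortex (-0.62 ± 0.15, adjusted p = 0.00862), fell in cKO-E against ctrl, and 4, among them Zbtb20 (0.15) and Dmrta2 (-0.29), did not pass (edgeR). Of 7 neocortical genes tested, Emx1, Pax6 and Eomes fell by 0.34, 0.35 and 0.32, and Tbr1 did not pass (0.20, adjusted p = 0.346, edgeR). Of the 8 further hem and roof plate genes only Bmp7 had enough counts for the fit, at -0.18 ± 0.35 (adjusted p = 0.793, edgeR).

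Of the other 80 genes of the Wnt pathway, 50 were tested in cKO-E against ctrl, of which 1 rose and 8 fell. Their median log2 fold change was -0.11, beside 0.02 over all genes. Among the other 13 Wnt ligands only Wnt5b had enough counts, with a mean of 75.6 CPM in ctrl and 58.8 CPM in cKO-E (-0.36 ± 0.12, adjusted p = 0.0478, edgeR), and Rspo4 had at most 1 count a library. The Wnt secretion genes Wls and Porcn were at -0.48 and 0.07 and did not pass. Of 17 receptor genes tested, 3 fell: the co-receptor Lrp5 (-0.46 ± 0.10, adjusted p = 0.00391), Ptk7, a pseudokinase of planar polarity signalling (-0.25), and Reck, a Wnt7-specific co-receptor component (-0.31). The abundant Lrp6 (-0.10), Ror2 (-0.22) and Znrf3 (-0.16) did not pass.

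Secreted inhibitors moved in opposite directions. Sfrp1, which binds Wnt proteins outside the cell, fell from a mean of 334 CPM to 222 CPM (-0.58 ± 0.14, adjusted p = 0.0101), while Dkk3, a divergent Dickkopf protein, rose from 5.15 CPM to 13.3 CPM (1.42 ± 0.34, adjusted p = 0.00808, edgeR); the other 4 tested, Draxin (0.25) among them, did not pass. Of 17 intracellular genes tested, Tcf7l1 fell from 457 CPM to 264 CPM with no overlap between groups (-0.80 ± 0.10, adjusted p = 4.48e-05), and Tcf7l2 (-0.45 ± 0.09, adjusted p = 0.00247) and the β-catenin cofactor Bcl9l (-0.32, adjusted p = 0.0249) fell as well (edgeR). Apc, Gsk3b and Ctnnb1, at 0.18, -0.11 and -0.08, did not pass. Of 10 tested genes that are commonly used as readouts of canonical Wnt signalling, 0 were called and 0 had an unadjusted p under 0.05 in edgeR; Axin2 was 41.5 CPM in ctrl and 37.9 CPM in cKO-E (-0.10 ± 0.15, adjusted p = 0.727), Tnfrsf19 was at -0.09 and Lef1 at -0.27.

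**Figure D4:**
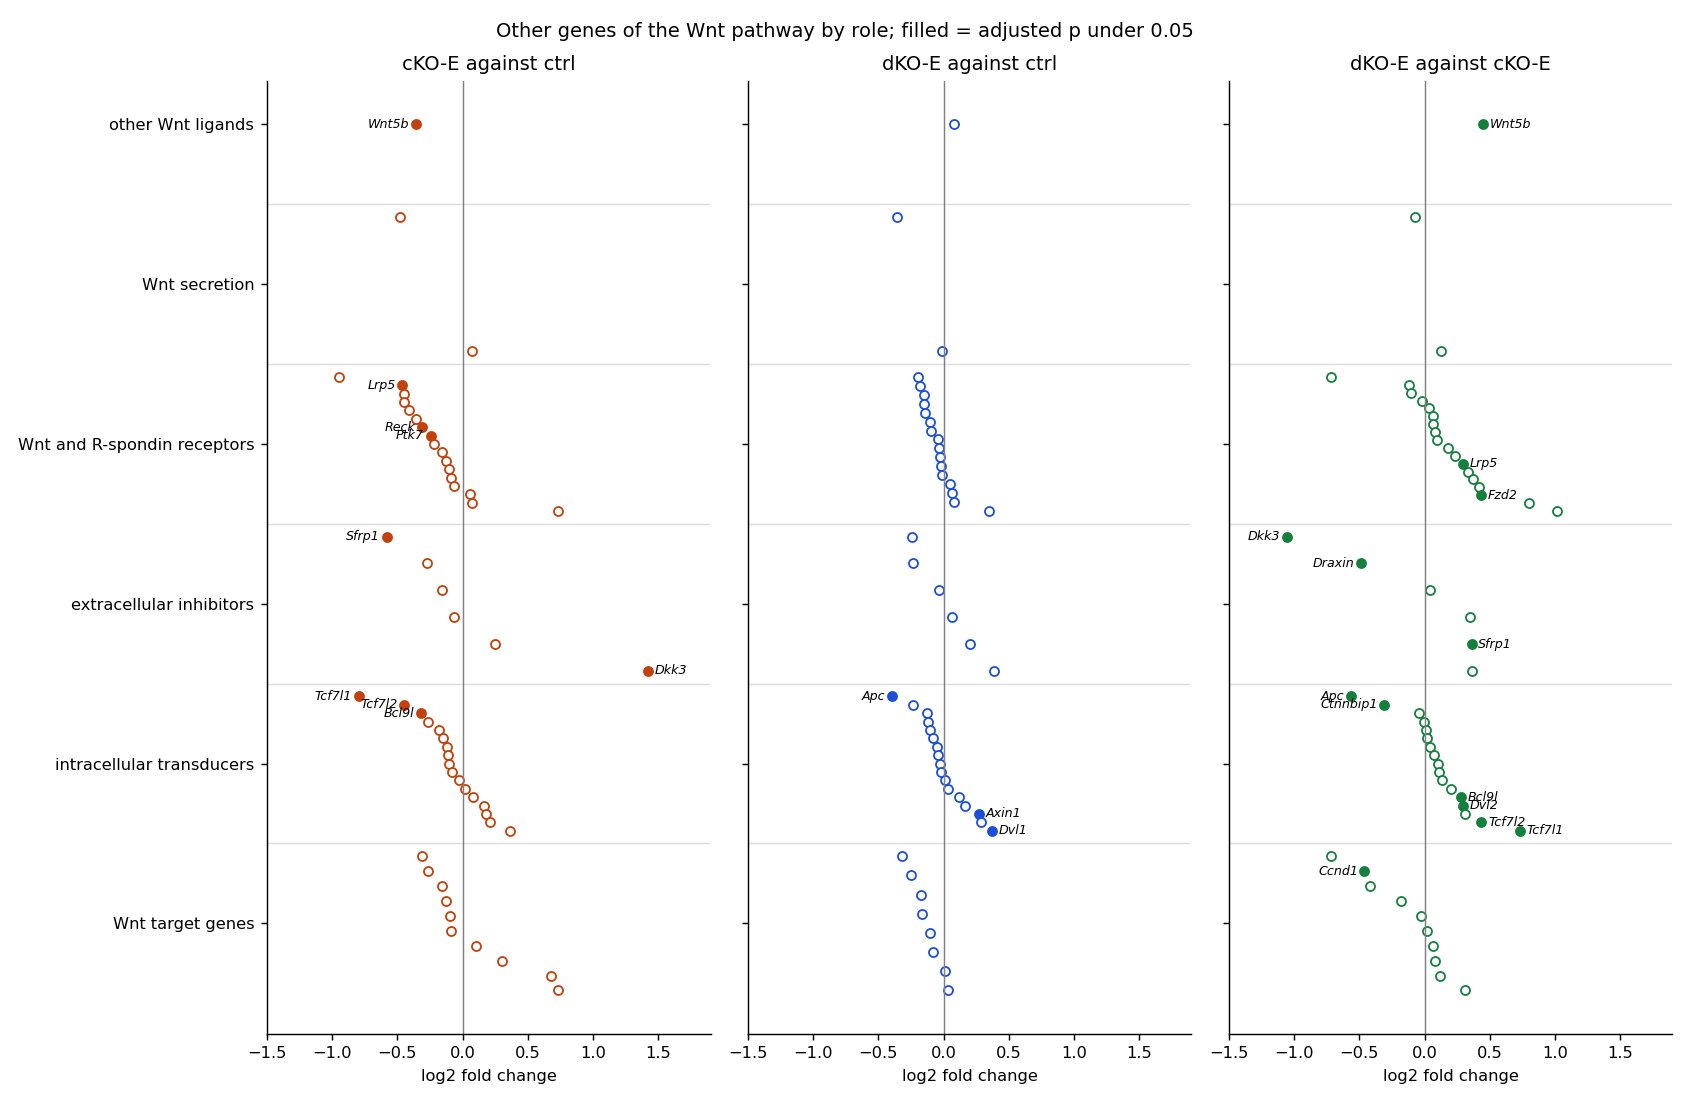
Log2 fold change (x axes) of the other tested genes of the Wnt pathway, grouped by role (rows), in cKO-E against ctrl, dKO-E against ctrl and dKO-E against cKO-E; each point is 1 gene, filled and named where the adjusted p was under 0.05. Tcf7l1 is at -0.80 in the first panel and at 0.73 in the third, and no Wnt target gene is filled in the first 2 panels.

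The second comparison asked what remained when Trp53 was deleted together with Ino80. Between dKO-E and ctrl 4 of the 10 genes were tested and 0 were called in either direction, where 5.45% of 11381 genes were higher and 10% were lower. Without adjustment, 2 of the 4 (Wnt7b and Rspo3) had p under 0.05 in edgeR, both with lower means. No share of all genes at that threshold was measured to set beside this count. The likelihood-ratio test of edgeR and DESeq2 also gave 0 calls. At the rate of 0.001 the count was 0 in both edgeR tests, against 2.58% of all genes in the quasi-likelihood and 5.40% in the likelihood-ratio test, and the groups overlapped for all 4, against 4.23% of all genes that did not overlap. The median log2 fold change of the 4 was -0.22, beside 0.01 over all genes tested.

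Rspo3 in dKO-E ranged from 19.6 CPM through a median of 32.1 CPM to 44.3 CPM, and 6 of its 7 values fell inside the ctrl range. Its log2 fold change was -0.38 ± 0.16 (adjusted p = 0.105, edgeR). The batches pointed in opposite directions. Fitted alone, batch 1 gave -0.67 ± 0.15 (adjusted p = 0.013), with dKO-E at 19.6 to 35.8 CPM and ctrl at 40.9 to 50.5 CPM, and batch 2 gave 0.26 ± 0.21 (adjusted p = 0.586), with dKO-E at 32.1 to 44.3 CPM and ctrl at 24.0 to 34.7 CPM. Leaving out ctrl embryo H gave -0.46 with an adjusted p of 0.0301 (edgeR).

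Wnt7b was 61.2 CPM at the lowest, 74.7 CPM at the median and 95.3 CPM at the highest in dKO-E, 3 of 7 embryos below every ctrl embryo (-0.29 ± 0.11, adjusted p = 0.0886, edgeR). With sequencing batch as a covariate it was called at -0.29 (adjusted p = 0.0338), and without ctrl embryo H at -0.34 (adjusted p = 0.0272, edgeR). Wnt7a ranged from 51.1 CPM through 69.8 CPM to 93.4 CPM (-0.15 ± 0.12, adjusted p = 0.406, edgeR). Its 4 dKO-E embryos of batch 1 lay at 69.8 to 93.4 CPM (0.06 in that batch), and among them embryo D was below every ctrl embryo. The 3 of batches 2 and 3 lay at 51.1 to 58.0 CPM, also below every ctrl embryo. Batch 2 fitted alone gave -0.64 ± 0.14 (adjusted p = 0.0282, edgeR). These values also split by litter. Embryos A, B and C of litter 1 lay at 86.5 to 93.4 CPM, and embryos D to G of litter 2 at 51.1 to 69.8 CPM. The separate parts of batch and litter were not tested. Wnt5a ranged from 4.86 to 12.7 CPM (0.31 ± 0.24, adjusted p = 0.428, edgeR).

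**Figure D5:**
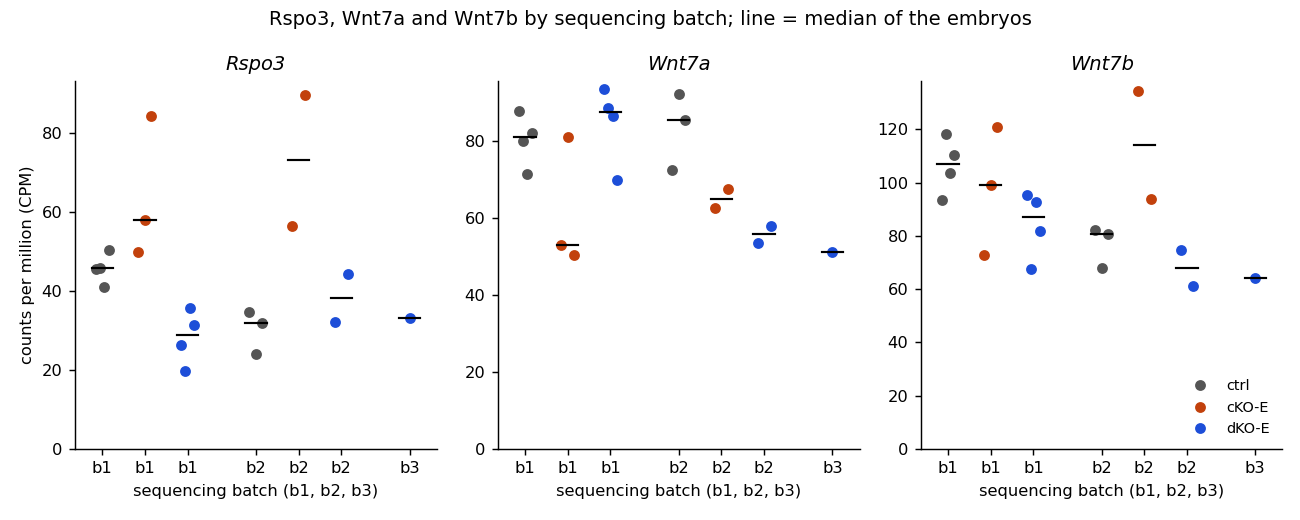
Rspo3, Wnt7a and Wnt7b in CPM (y axes, linear from 0) in each embryo, split by sequencing batch (b1, b2, b3) and coloured by group; the line is the median of the embryos. Rspo3 of cKO-E has the highest median in batches 1 and 2, whereas Wnt7a of dKO-E is at 69.8 to 93.4 CPM in batch 1 and 53.4 to 58.0 CPM in batch 2.

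None of the low genes passed the test between dKO-E and ctrl. Wnt3a had 0 counts in all 7 dKO-E libraries, which together allow up to 0.124 CPM at 3 counts, as it had in all 7 ctrl libraries. Wnt2b, Rspo1 and Wnt8b each had the same total in both groups, 8, 16 and 24 counts. The exact permutation p was 0.868 for Wnt2b, 0.796 for Rspo1, 0.689 for Wnt8b, 0.286 for Rspo2 and 0.828 for Lmx1a. Lmx1a, which was too low for the fit here, was 0.747 to 4.16 CPM in dKO-E with a median of 1.37 CPM. Embryo G of dKO-E stood above the other dKO-E embryos, at 13.7 CPM (13 counts) for each of Wnt8b and Rspo2, and its library had only 885159 counts.

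Among the pathway genes 3 of 48 tested were called in dKO-E against ctrl, and the median was -0.04 beside 0.01 over all genes. Axin1 (0.27 ± 0.06, adjusted p = 0.00455) and Dvl1, a cytoplasmic transducer (0.37 ± 0.12, adjusted p = 0.0449), rose, and Apc, a scaffold of the β-catenin destruction complex, fell from 517 CPM to 396 CPM with no overlap (-0.39 ± 0.09, adjusted p = 0.00431, edgeR). Of the 8 tested Wnt targets 0 were called, 1 had an unadjusted p under 0.05 in edgeR, and Axin2 was 41.2 CPM (0.01 ± 0.14). None of the 4 tested Cajal-Retzius, 2 subpallial, 1 microglial, 4 endothelial, 3 antihem or 7 neocortical genes was called, and of 6 medial pallial genes Emx2 was lower (-0.45 ± 0.14, adjusted p = 0.0333, edgeR).

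The third comparison set the 2 mutants side by side. The double mutant had less Rspo3 and Lmx1a, and none of the 5 genes tested was called higher in it. Of the 5 tested, 2 were lower, where 9.42% of 11746 genes were lower and 5.59% were higher, and 1, Rspo3, was called at 0.001, where 3.13% of all genes were. The likelihood-ratio test at 0.001 called 2, Rspo3 and Lmx1a, against 6.17% of all genes. Rspo3 was also the 1 of 5 with groups that did not overlap, against 6.76% of all genes. Lmx1a again entered the fit mainly through cKO-E (4 libraries over the filter, against 1 of dKO-E). Of the other 4 genes 1 was lower, and their median was -0.32, beside 0.02 over all genes tested. The cKO-E libraries also enter the first comparison, so a high cKO-E value appears in both.

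The highest dKO-E value of Rspo3, 44.3 CPM in embryo G, was below the lowest cKO-E value, 49.9 CPM in embryo A. The log2 fold change was -1.16 ± 0.17 (adjusted p = 9.91e-05, edgeR). Both batches gave the same direction and size, -1.15 ± 0.21 in batch 1 (adjusted p = 0.00484) and -1.15 ± 0.20 in batch 2 (adjusted p = 0.00215), and it was -1.03 without cKO-E embryo E. Batch 2 set only 2 cKO-E against 2 dKO-E embryos, among them the libraries of lowest depth, cKO-E D (820915 counts) and dKO-E G (885159 counts). Litter and genotype cannot be told apart in either batch. The call was kept under every alternative in which it was fitted.

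Lmx1a was 0.747 to 4.16 CPM in dKO-E against 1.84 to 22.4 CPM in cKO-E, with 4 of the 7 double mutants under the lowest cKO-E value (-2.46 ± 0.55, adjusted p = 0.00438, edgeR). Without cKO-E embryo E it was -1.52 (adjusted p = 0.0238), and in batch 1 alone -1.5 ± 0.54 (adjusted p = 0.105, edgeR). The call was also lost without dKO-E embryos B, C and E, the dKO-E libraries with the meningeal collagen gene Col3a1 at 15 CPM or more (-2.11 ± 0.68, adjusted p = 0.0578, edgeR). Wnt7b was near the threshold (-0.38 ± 0.13, adjusted p = 0.0634, edgeR) and passed without cKO-E embryo A (-0.49, adjusted p = 0.0137), dKO-E embryo A (adjusted p = 0.0345) or dKO-E embryo C (adjusted p = 0.0426). Wnt7a (0.22 ± 0.15, adjusted p = 0.362) and Wnt5a (-0.27 ± 0.29, adjusted p = 0.617) did not pass (edgeR).

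Of the low genes, Wnt3a was pooled at 1.31 CPM in cKO-E and, set against the limit of 0.124 CPM, was at least 10.5-fold lower in the double mutant (exact permutation p = 0.0455). Without cKO-E embryo E the 3 remaining counts were no more than the limit for those 4 libraries (0.298 CPM), so that no fold can be given, and the exact permutation p was 0.109; it was also 0.0606 to 0.109 without cKO-E embryo B or C or any 1 dKO-E embryo. Wnt2b was 2.20 CPM in cKO-E and 0.483 CPM in dKO-E, with 6 of the 7 double mutants under the lowest cKO-E value (exact permutation p = 0.0328). That lowest value, 0.574 CPM, was 2 counts in embryo B. It lies under the 0.86 CPM that 3 counts make in that library, so single embryos cannot be ranked against it. The p was 0.145 without cKO-E embryo E, and 0.0515 to 0.0628 without cKO-E embryo C or any 1 dKO-E embryo but G. Rspo2 (16.9 and 3.40 CPM), Rspo1 (2.91 and 0.836 CPM) and Wnt8b (3.92 and 2.46 CPM) gave an exact permutation p of 0.158, 0.187 and 0.61. Single embryos decided the first 2: Rspo2 was at p = 0.0108 without dKO-E embryo G and 0.982 without cKO-E embryo E, and Rspo1 at 0.00866 without dKO-E embryo F and 0.633 without cKO-E embryo E (exact permutation tests).

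In the pathway 8 of 51 tested genes rose and 5 fell between cKO-E and dKO-E, with a median of 0.08. Tcf7l1 (0.73 ± 0.13, adjusted p = 0.000952), Tcf7l2 (0.44), Bcl9l (0.28), Dvl2 (0.29), Wnt5b (0.45), Lrp5 (0.30), Fzd2 (0.43) and Sfrp1 (0.36) were higher, and Apc (-0.57 ± 0.09, adjusted p = 0.000182), Draxin, a secreted Wnt antagonist and axon guidance protein (-0.49), Ctnnbip1, an inhibitor of β-catenin (-0.31), Dkk3 (-1.06) and the cell cycle gene Ccnd1 (-0.46) were lower in dKO-E (edgeR). Ccnd1 was the 1 of 10 Wnt targets called. The Cajal-Retzius genes Reln (-0.70), Trp73 (-0.88), Ebf3 (-0.74) and Lhx1 (-1.23) were lower, as were 3 of 3 tested subpallial genes (Dlx1, Lhx6 and Gad1) and Cx3cr1 (-1.30), the 1 microglial gene tested. Lhx1 and Dlx1 had medians of 1.83 and 2.24 CPM in dKO-E, under the 3.46 CPM of the filter, and 4.33 and 7.32 CPM in cKO-E. As with Lmx1a, the calls of Lhx1 and Dlx1 are no support for a fall of their lists. None of the 4 endothelial or 3 antihem genes tested was called. The 7 meningeal genes summed to 2.99 to 68.7 CPM in dKO-E (median 13.7 CPM) against 1.18 to 7.74 CPM in cKO-E. Lhx2 (0.48) was higher and Zbtb20 (-0.25) lower among medial pallial genes, and Emx1 (0.45) was higher and Tbr1 (-0.48) lower among the neocortical ones (edgeR).

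Genes whose level followed a gene of the set across embryos were ranked by Pearson r of log2(CPM + 2) after subtraction of the group means, over 19 libraries and 10791 genes (10790 for Wnt7b) of at least 5 CPM. The values share libraries and depth and are a description. For Wnt3a the closest were E330013P04Rik (r = 0.805), Rspo2 (0.794) and Phlpp1, a phosphatase (0.791), which dropped to 0.591, 0.42 and 0.42 without cKO-E embryo E. Wnt3a had 0 counts in every ctrl and dKO-E library, so its deviations there were 0 and only the cKO-E libraries could move with it. Those held 0, 1, 2, 0 and 14 counts in embryos A to E, so the r without embryo E rests on 3 counts. For Lmx1a they were Kif6 (0.776), Hacl1 (0.753) and Rragd (0.673), and 0.63, 0.70 and 0.679 without that embryo. For Wnt7b they were Sort1, a sorting receptor (0.956), Sel1l3 (0.93) and Limch1 (0.905), which hardly moved without that embryo (0.956, 0.938 and 0.906). Within the set the deviations of Wnt2b and Rspo2 had r = 0.878, those of Wnt5a and Wnt8b 0.755 and those of Wnt8b and Rspo1 0.707, whereas Wnt7a and Wnt7b had 0.216.

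Of the 10 genes, Wnt5a, Wnt7b and Rspo3 share 4.58%, 6.62% and 13.1% of their exon bases with a gene on the other strand, and whether counting used strand is not given in the sources used here, so reads from those stretches may have been left out or belong to the partner. The other 7 share none with another annotated gene.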

How the data were processed

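RNA was taken from dissected E13.5 cortex of single embryos, depleted of ribosomal RNA and made into UMI libraries by Click-seq. Per the labels and the study's methods, the authors trimmed reads (cutadapt 1.13), aligned them to mm10 (STAR 2.5.2a), removed duplicates by UMI (UMI-tools 0.5.3) and deposited raw counts per gene (HTSeq 0.6.1p1); the versions are in the submitters' processing notes. Here the 5 summary rows were left out; reads outside genes or ambiguous were 8.39 to 17.3% per library. Symbols came from GENCODE M21 (51719 of 51912 identifiers). No 2 libraries held identical counts. Each comparison was fitted on its own groups with edgeR 4.0.16 (filterByExpr, minimum count 10, TMM, quasi-likelihood F test, Benjamini-Hochberg adjustment); SE is the log2 fold change over the root of F. The script was tested on simulated data. Genes under the filter got an exact permutation test. DESeq2 1.42.0, other scalings, filters, covariates and embryos left out were alternatives. Embryos were treated as replicates, and the p-values set the difference between groups against the spread of embryos. Littermates were treated as independent in the main fits and in the permutation tests.

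The genes named are the 10, listed genes past a false discovery rate of 0.05, up to 3 others per list with the highest mean CPM, and 3 genes most like each of Wnt3a, Lmx1a and Wnt7b; Bmp6 and Ttr were named after their values were seen. The genes and lists were chosen with earlier results of these data known.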

Additional observations from a re-analysis of the deposited data

Results flagged for a closer look

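Values that stood apart from the other embryos of their group, by a gap of more than Dixon's critical share of the group's range, were found in 10 of 28 sets of 1 gene and 1 group; chance gives about 1 in 20 for normally distributed values, and the rate for sparse counts such as these was not measured. Embryo E of cKO-E stood apart in 4 of them, with Wnt3a at 4.74 CPM (next highest 0.737 CPM), Wnt2b at 6.44 CPM (1.47 CPM), Rspo2 at 70.5 CPM (4.72 CPM) and Lmx1a at 22.4 CPM (6.99 CPM). It is a library of sequencing batch 2 and litter 7, with 2957965 counts. Embryo G of dKO-E stood apart for Wnt2b at 2.11 CPM (next highest 0.462 CPM, 2 counts in G), Wnt8b at 13.7 CPM (2.99 CPM) and Rspo2 at 13.7 CPM (3.07 CPM). Embryo D of ctrl stood apart for Wnt8b at 6.78 CPM (1.08 CPM) and Rspo1 at 5.09 CPM (0.261 CPM), and embryo F of dKO-E for Rspo1 at 4.11 CPM (1.05 CPM). The cause was not tested.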

How the results depend on the processing

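Of the alternatives below, shares over all genes were measured only at a false discovery rate of 0.001. The other counts, among them those with no filter, cannot be set beside all genes. Of the 10 genes, 3 were called in cKO-E against ctrl. The count was 6 with no filter on low counts, 1 with litter as a block, 1 in sequencing batch 1 alone, 1 in batch 2 alone, 0 at a false discovery rate of 0.001 and 1 at that rate in the likelihood-ratio test (added after seeing the data); leaving out embryos in turn gave 2 to 3. In dKO-E against ctrl the count of 0 became 1 with sequencing batch or sex as a covariate, 1 with the letter of the label as a replicate block, and 1 in batch 1 or batch 2 alone; leaving out embryos gave 0 to 2, with 2 without ctrl embryo H. In dKO-E against cKO-E the count of 2 became 8 with no filter, 1 with at least 10 counts in every library (Lmx1a was not fitted), 4 with sex as a covariate, 1 in batch 1 alone, 1 at a false discovery rate of 0.001 and 1 without the libraries with Col3a1 at 15 CPM or more (ctrl F and dKO-E B, C and E, an alternative chosen after seeing the data); leaving out embryos gave 2 to 4, with 4 without cKO-E embryo A. For the genes below the filter, 5 exact permutation tests had an unadjusted p under 0.05, with no share over all genes to set beside them. Leaving out embryos gave 2 to 6, with 2 without cKO-E embryo C or E. Without embryo E, Lmx1a in cKO-E against ctrl was 1.22 (adjusted p = 0.0885), and with litter as a block 1.9 (0.0614).

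Directions turned for fold changes that were not called in the comparison: Wnt7b in cKO-E against ctrl was -0.027 with the letter as a replicate block and -0.13 in batch 1, Wnt7a in dKO-E against ctrl was 0.089 with litter as a block and 0.064 in batch 1, Rspo3 in dKO-E against ctrl was 0.26 in batch 2, and Wnt7a in dKO-E against cKO-E was -0.28 in batch 2. The cause was not tested. Some embryos with the same letter were also littermates of the same sequencing batch: ctrl A and dKO-E A, and ctrl B and dKO-E B (litter 1, batch 1). The r of the deviations of same-letter embryos was -0.0207 to 0.164 in cKO-E against ctrl. It was -0.426 to 0.176 in dKO-E against ctrl and -0.0979 to 0.156 between the mutants. With the letter as a replicate block 2 genes were called in cKO-E against ctrl and 2 between the mutants. Depth limits the 5 low genes, for which 3 counts correspond to as much as 3.54 CPM in 1 library.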
